A study of Mus musculus with 24 samples.

Results

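The 94 protein-coding mouse genes whose symbol begins with Kcn, the naming root of potassium channel subunits, were followed in visual cortex RNA of 24 mice. They were chosen by symbol alone, out of 55414 rows of the count table, and 76 of them were among the 14464 genes that reached a count of at least 30 in any library and were tested. The mice were C57BL/6J males, whose age the study's methods give as 8 to 10 weeks and, at the experiment, as 8 weeks, with 6 mice and 1 library per mouse in each of 4 groups. All were kept on a reversed light cycle and handled in its dark phase. The dark group received vehicle (PBS, a salt solution) and stayed in the dark, and the light group received vehicle and was placed in light. The psilocybin-dark group received 5 mg/kg psilocybin, a serotonergic psychedelic, and stayed in the dark, whereas the psilocybin-light group received the same dose and was placed in light. Tissue was taken 2.5 hours later. Dark mice are numbered 1 to 6 here, psilocybin-dark mice 7 to 12, light mice 13 to 18 and psilocybin-light mice 19 to 24, as the library names give them.

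Light exposure is given in opposite ways by the sources for all 24 libraries, with the same drug. The names used here follow the headings of the study's supplementary count table, and the treatment labels in the database name the other light exposure. Every comparison between a pair of library sets is the same under both. Under the labels, however, "dark" and "light" would be exchanged, also within the psilocybin groups, and the interaction would change sign.

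Potassium channels let potassium leave or enter a cell and so set its resting potential, the shape of its action potentials and how fast it fires. Voltage-gated (Kv) channels are built from 4 pore subunits, with silent, beta and other auxiliary subunits that change their gating, and further classes are gated by calcium, sodium, G proteins, ATP or mechanical stretch, or leak at rest. In cortex, different neuron classes and glia carry different sets, so that in bulk tissue fewer cells of a type and less RNA per cell cannot be told apart.

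Some libraries stood apart from the rest before any comparison. Total counts ran from 13552516 to 17906994 per library. The lowest chi-square per degree of freedom over the 60 within-group pairs was 3.073, so no 2 libraries of the same group were copies of each other. Pairs of libraries from different groups were not compared in this way. Dark mice 1 and 6, light mouse 18 and psilocybin-dark mouse 12 held summed counts of 8 cerebellar markers between 22330 and 77334 normalized counts (counts scaled to the mean library size), against 501 to 3048 in the other 20. Dark mice 1 to 5 held summed hippocampal markers of 4381 to 8340, against 1839 to 2330 in the other 19 mice, dark mouse 6 included. No dark library was therefore at the level of the other groups for both lists. The summed level of 8 excitatory cortical neuron markers was 13056 to 34952 in dark mice and 30302 to 41391 in the other groups, and 5 of the 8, Cux2, Rorb and Scnn1a among them, were higher than dark in each of the 3 comparisons. Summed striatal markers were 1919 to 3006 in dark, 3416 to 4019 in light, 2809 to 3665 in psilocybin-dark and 3309 to 4350 in psilocybin-light mice. Oligodendrocyte markers were at 18655, 27074 and 20299 in dark mice 2, 3 and 4 and at 39130 or more in the other groups. Dark mouse 1 was highest at 127156. Neither of these lists was used as a covariate. The part that these markers have in the results on channel genes was not tested beyond the values given beside each.

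Expression of the channel genes spanned several orders of magnitude, and on counts per kilobase of exon, the scale on which genes can be compared, the most abundant over all 24 mice were Kcnk1 at 810.4, Kcnf1 at 771.6, Kcnab2 at 757.0, Kcnip3 at 600.2 and Kcnj4 at 561.3. Kcnk1 is a leak channel, Kcnf1 a silent Kv subunit, Kcnab2 a Kv beta subunit, Kcnip3 a calcium-binding partner of Kv4 channels and Kcnj4 an inward rectifier. Kcnj10, the main inward rectifier of astrocytes, stood at 517.2. At the other end, Kcnj5 averaged 0.9 and Kcnq1 2.0 per kilobase. Below the filter were 18 members, among them Kcnj1, with no count in any library, Kcnh8, Kcng3, Kcnmb1, Kcnn4 and Kcnrg, and they are named without comparisons.

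**Figure D1:**
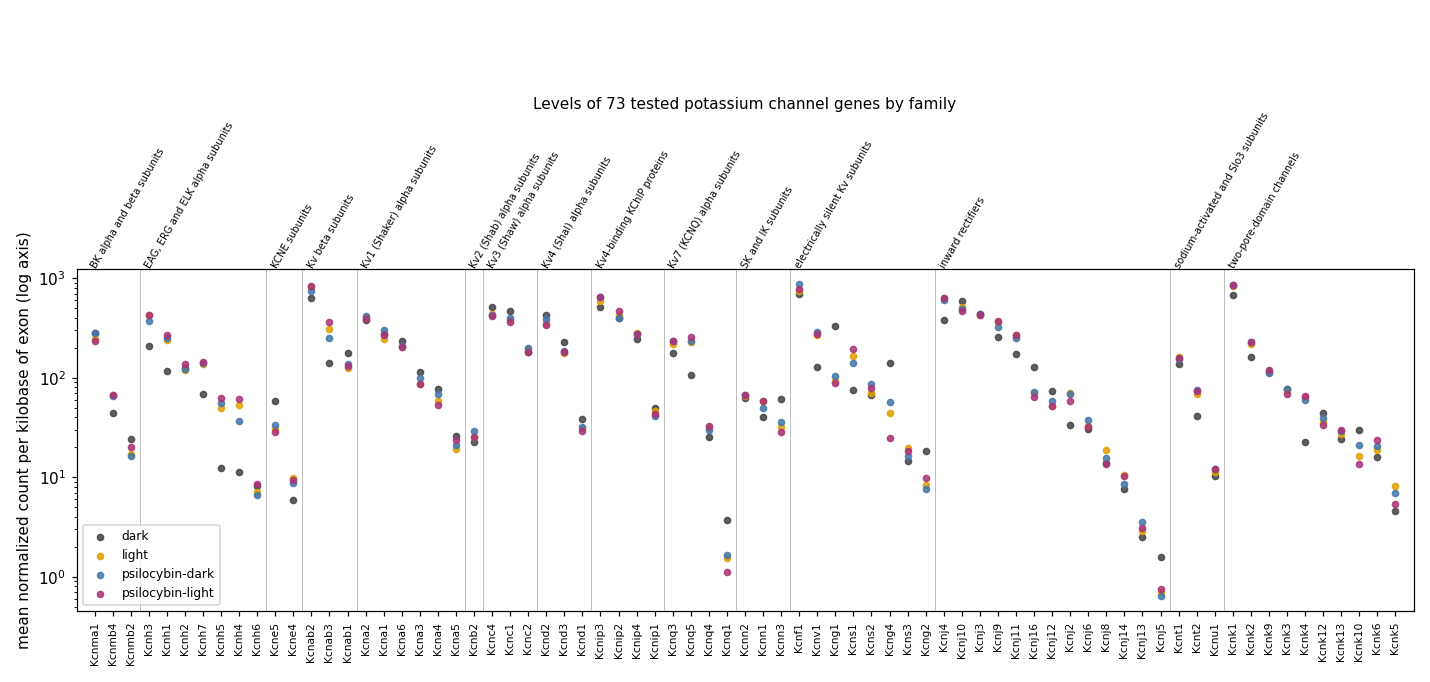
Mean normalized count per kilobase of exon (log axis) of 73 tested potassium channel genes, 1 point per group of 6 mice, ordered by level within each family. Dark mice (dark grey) lie apart from the other groups for genes such as Kcnh4 and Kcnh5 below and Kcng1 above, while for most members the 4 points lie close together.

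The 300 bases before the start of the canonical transcript are shown for a member that was higher (Kcnh4, minus strand, chr11:100650838-100651137) and a member that was lower (Kcnj16, plus strand, chr11:110858543-110858842) than in dark mice, since their groups differed in opposite directions and these windows touch no annotated exon (GRCm39, GENCODE vM39). CpG pairs are in capitals, 11 of them in Kcnh4 and 3 in Kcnj16.
Kcnh4: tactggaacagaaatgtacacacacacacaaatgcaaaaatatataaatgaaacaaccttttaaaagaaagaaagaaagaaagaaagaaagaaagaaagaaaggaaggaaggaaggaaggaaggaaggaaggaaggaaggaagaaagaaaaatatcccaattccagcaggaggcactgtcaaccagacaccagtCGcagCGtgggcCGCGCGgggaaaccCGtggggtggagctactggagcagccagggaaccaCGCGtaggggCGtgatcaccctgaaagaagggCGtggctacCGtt
Kcnj16: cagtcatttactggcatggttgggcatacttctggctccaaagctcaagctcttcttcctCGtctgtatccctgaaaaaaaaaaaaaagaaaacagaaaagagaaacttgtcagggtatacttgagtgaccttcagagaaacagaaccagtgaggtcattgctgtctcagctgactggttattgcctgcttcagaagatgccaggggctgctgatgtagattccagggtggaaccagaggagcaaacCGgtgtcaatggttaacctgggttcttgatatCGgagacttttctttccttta
Motifs of activity-regulated factors were searched on both strands of such windows for the 76 tested members and for 13550 tested protein-coding genes. The CREB site TGACGTCA was in 2.103% of all windows and in none of the members', the EGR site GCGTGGGCG in 0.797% and in none, the AP-1 site TGANTCA in 5.52% and in 2 members' windows (Kcnd1 and Kcng4). The shorter CREB core TGACG, which is also within the full site, was in 24.974% of all windows and in 11 members' windows, those of Kcnh5, Kcnh7, Kcnq5 and Kcnt2 among them.

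Channel genes differed from dark mice in all 3 other groups, in both directions. In light mice 34 of the 76 passed the test (44.7%, against 31.9% of all genes tested), 21 higher (all genes 15.4%) and 13 lower (all genes 16.5%). In psilocybin-dark mice 32 passed (42.1%, against 24.7%), 22 higher (all genes 11.9%) and 10 lower (all genes 12.8%). In psilocybin-light mice 40 passed (52.6%, against 38.4%), 24 higher (all genes 17.4%) and 16 lower (all genes 21.0%). The median absolute log2 fold change over the members was 0.41, 0.34 and 0.40 in that order, beside 0.17, 0.15 and 0.19 over all genes tested. These comparisons share the same 6 dark mice, so that they are not independent. Calls were made by edgeR's quasi-likelihood test at a Benjamini-Hochberg adjusted p under 0.05 over all genes tested, here and in every comparison that follows.

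Groups that did not overlap were fewer. All 6 light mice lay outside the range of the 6 dark mice for 13 members (17.1%, against 10.0% of all genes), all 6 psilocybin-dark mice for 4 (5.26%, against 5.58%) and all 6 psilocybin-light mice for 20 (26.3%, against 15.8%).

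Counts of members past the test changed with the libraries used and with the hippocampal markers in the fit. Without the 4 libraries rich in cerebellar markers, 49, 47 and 55 of 75 members passed in light, psilocybin-dark and psilocybin-light mice, beside 43.1%, 38.3% and 48.2% of all genes, and the members that had passed before were among them in 34 of 34, 30 of 32 and 37 of 40 cases. With the mean level of the hippocampal markers as a covariate, 10, 0 and 11 passed (8.28%, 0.00% and 11.2% of all genes). Since that mean was raised in 5 of the 6 dark mice and in no other mouse, it and the dark group can hardly be told apart.

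Called in all 3 comparisons were 28 members, 19 higher and 9 lower than dark, and 33 were called in none. The shares of all genes for these joint calls were not computed, so the counts cannot be read as particular to channel genes. The 3 comparisons share the dark mice.

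**Figure D2:**
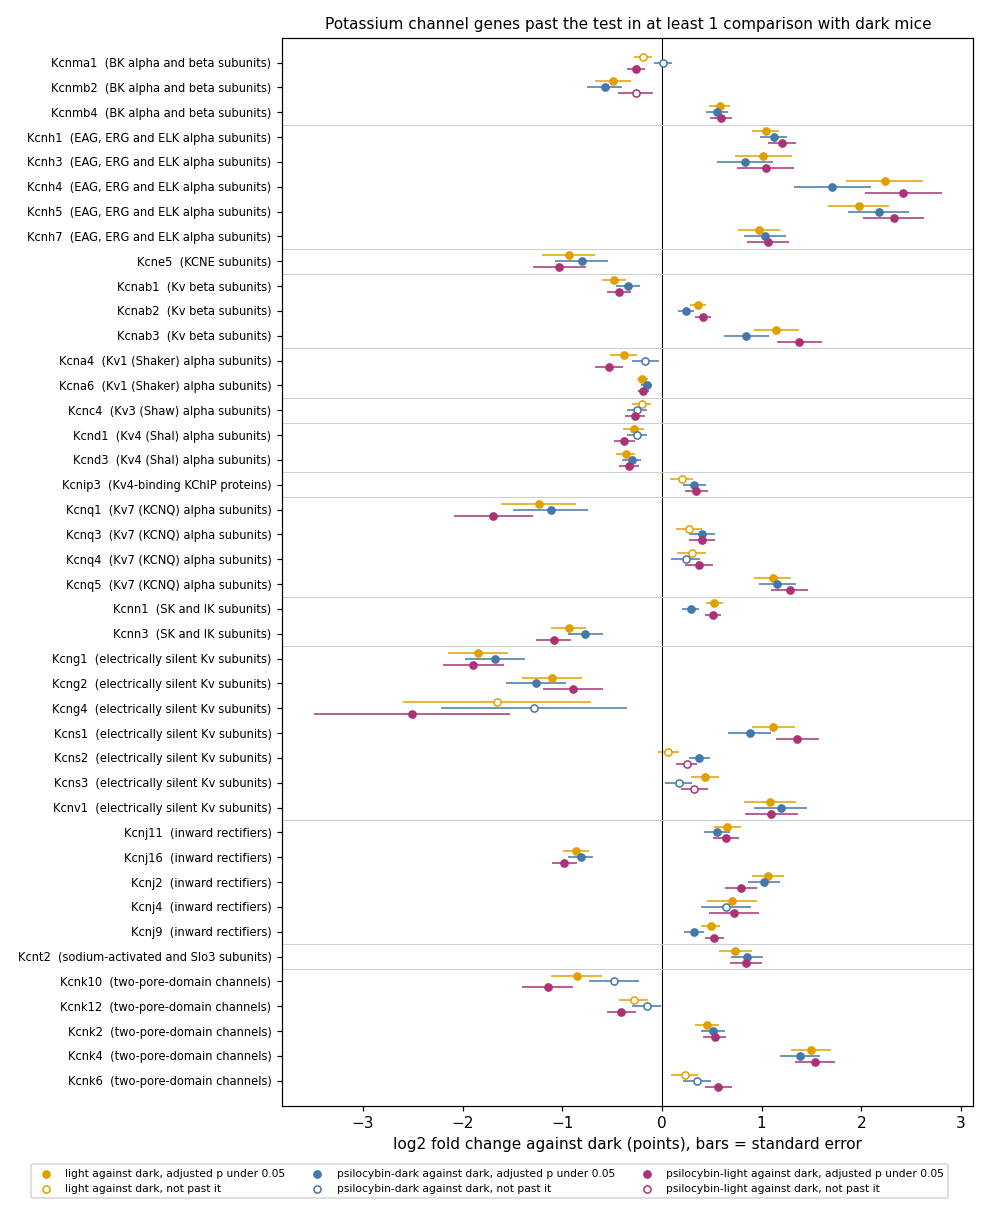
Log2 fold change against dark mice (points) with its standard error (bars) for 42 members past the test in at least 1 of the 3 comparisons, by family. Filled points passed the adjusted threshold and open points did not; the Kcnh genes lie to the right of 0 and Kcng1, Kcng2, Kcnq1 and Kcnn3 to the left in all 3.

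Most of the EAG, ERG and ELK pore subunits (Kcnh genes) rose. Of 7 tested, 5 (Kcnh1, Kcnh3, Kcnh4, Kcnh5 and Kcnh7) were higher than dark in each of the 3 comparisons and none was lower. Kcnh6 did not pass in any of them. Of all genes, 15.4%, 11.9% and 17.4% were called higher in light, psilocybin-dark and psilocybin-light mice. The median log2 fold change of the 7 was 1.02, 1.04 and 1.06 in light, psilocybin-dark and psilocybin-light mice, against −0.01, −0.02 and −0.02 over all genes. These channels carry slowly gated currents that act near threshold; the ERG member Kcnh2, also known from the heart, had log2 fold changes of −0.09 and −0.03 in light and psilocybin-dark mice and did not pass.

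Kcnh4, an ELK subunit (GRCm39 chromosome 11, 100631202 to 100650837), ran from 11.0 to 149 normalized counts in dark mice with a median of 48.0. It ran from 192 to 340 (median 304) in light mice, from 116 to 248 (median 206) in psilocybin-dark mice and from 268 to 358 (median 342) in psilocybin-light mice. Light and psilocybin-light mice did not overlap dark mice, whereas the lowest psilocybin-dark mouse, number 12, lay below dark mouse 2. Relative to dark the log2 fold changes were 2.23 ± 0.39 (SE, adjusted p = 0.000153), 1.71 ± 0.39 (adjusted p = 0.00261) and 2.42 ± 0.39 (adjusted p = 4.64e-05). When the 4 libraries rich in cerebellar markers were left out, the psilocybin-dark mice (189 to 248) also lay above every dark mouse (24.8 to 149), and the log2 fold changes were 1.83, 1.32 and 1.93.

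Kcnh5, an EAG subunit of neurons (chromosome 12, 74942354 to 75224151), ran from 23.7 to 172 (median 56.6) in dark mice. It ran from 179 to 366 (median 285) in light mice, from 177 to 499 (median 320) in psilocybin-dark mice and from 309 to 467 (median 343) in psilocybin-light mice, so that no mouse of these groups overlapped the dark mice. Kcnh5 thus had log2 fold changes of 1.98 ± 0.31 (adjusted p = 5.36e-05), 2.17 ± 0.31 (adjusted p = 3.74e-05) and 2.32 ± 0.31 (adjusted p = 5.88e-06). With the hippocampal marker mean as a covariate they were 1.47, 1.62 and 1.77, with adjusted p of 0.0746, 0.218 and 0.0378.

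Kcnh1, the related EAG subunit, had the smallest adjusted p of all members in each of the 3 comparisons. It ran from 732 to 1148 normalized counts in dark mice, from 1429 to 2244 in light, from 1284 to 2440 in psilocybin-dark and from 1718 to 2268 in psilocybin-light mice, with no overlap with dark. Its log2 fold changes were 1.04 ± 0.14, 1.12 ± 0.14 and 1.2 ± 0.14, with adjusted p of 8.59e-06, 1.25e-05 and 9.84e-07. Kcnh3, the most abundant of the family at 359.4 per kilobase, rose by 1.02, 0.83 and 1.04, and the ERG subunit Kcnh7 by 0.98, 1.04 and 1.06 on the log2 scale. For Kcnh3 dark mice 1 and 6 (576 and 524 normalized counts) lay far below dark mice 2 to 5 (1726 to 2646), and without the 4 libraries its log2 fold changes were 0.66, 0.49 and 0.62. Kcnh3 shares exon sequence with Mcrs1, and Kcnh7 with Gca. Whether counting used strand is not given in the sources used here, so reads of overlapping genes on opposite strands cannot be told apart.

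**Figure D3:**
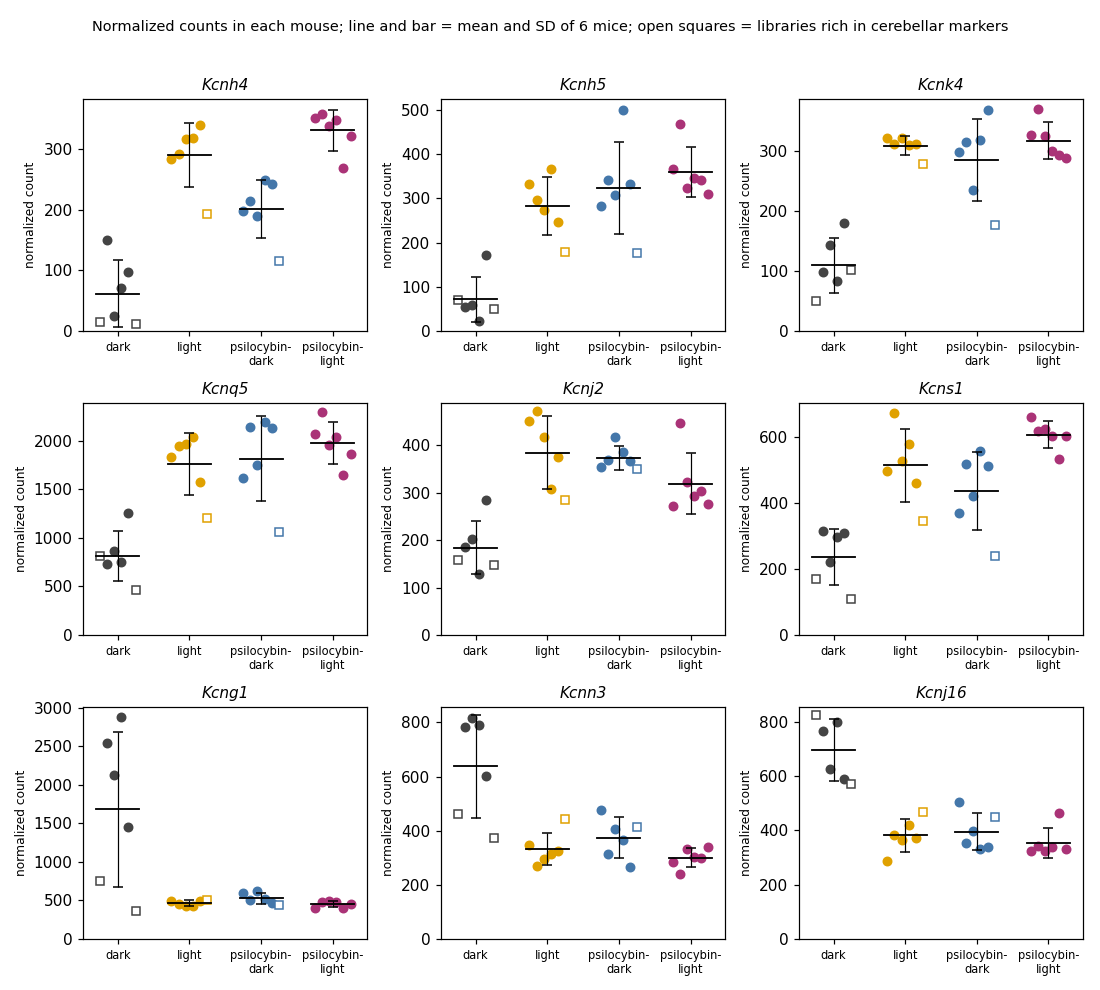
Normalized counts of 9 members in each mouse (points), with the mean (line) and SD (bar) of 6 mice; open squares are the 4 libraries rich in cerebellar markers. For Kcnh4, Kcnh5, Kcnk4, Kcnq5, Kcnj2 and Kcns1 dark mice are low, and for Kcng1 5 dark mice from 746 to 2877 stand above the rest while dark mouse 6 is at 358.

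Among the Kv7 (KCNQ) subunits, which carry the muscarine-sensitive M-current that limits repetitive firing, Kcnq5 rose and the rare Kcnq1 fell. Kcnq5 ran from 463 to 1261 normalized counts (median 783) in dark mice and had medians of 1892, 1942 and 1998 in light, psilocybin-dark and psilocybin-light mice. Its log2 fold changes were 1.11 ± 0.19 (adjusted p = 0.000118), 1.16 ± 0.19 (adjusted p = 0.00014) and 1.28 ± 0.19 (adjusted p = 1.82e-05). The psilocybin-light mice did not overlap dark mice, and light mouse 18 (1203) and psilocybin-dark mouse 12 (1061) fell within the dark range. With the hippocampal marker mean as a covariate the log2 fold changes of Kcnq5 were 1.12, 1.16 and 1.29 (adjusted p = 0.0417, 0.187 and 0.0241).

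Kcnq3, another subunit of the M-current channel, was higher in psilocybin-dark mice (log2 fold change 0.40, adjusted p = 0.0281) and psilocybin-light mice. Kcnq1, a channel best known from heart and epithelia, fell by 1.24, 1.11 and 1.69 on the log2 scale, from levels of 5.48 to 32.3 normalized counts in dark mice. Its row overlaps the antisense transcript Kcnq1ot1, and dark mouse 6 (5.48) and dark mouse 1 (8.05) were within the range of the other groups.

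The Kv1, Kv3 and Kv4 pore subunits that passed were all lower than dark. Of all genes, 16.5%, 12.8% and 21.0% were called lower in light, psilocybin-dark and psilocybin-light mice. Of 6 Kv1 genes tested, the Shaker subunits of axons and terminals, Kcna4 fell in light and psilocybin-light mice (log2 fold changes of −0.38 and −0.53) and Kcna6 in all 3 comparisons (−0.20, −0.15 and −0.19). Of 3 Kv4 genes, which carry the dendritic A-current, Kcnd3 fell in all 3 comparisons (log2 fold changes of −0.37, −0.31 and −0.33), Kcnd1 fell in light and psilocybin-light mice (−0.28 and −0.38) and Kcnd2 did not pass. With all mice, none of the 4 Kv3 genes, the Shaw subunits of fast-spiking cells, passed in light or psilocybin-dark mice. Kcnc4 passed downward in psilocybin-light mice. Its dark mice 1 and 6 (1980 and 1797 normalized counts) lay below dark mice 2 to 5 (2748 to 3078). Dark mice 2 to 5 lay above all light (1999 to 2417), psilocybin-dark (1944 to 2284) and psilocybin-light mice (2086 to 2187). The fall of Kcnc4 is thus not particular to psilocybin-light mice. Kcna2, the most abundant Kv1 subunit, had 95% intervals of −0.20 to 0.39, −0.14 to 0.45 and −0.24 to 0.34 for its log2 fold change.

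Several of these genes separated the 4 libraries rich in cerebellar markers from the other 20 mice. In 13 members the 4 libraries did not overlap the 20, and 9 of these were higher in the 4. The share of all genes that separated in this way was not computed, so the count cannot be read as particular to channel genes. Kcnc1, a Kv3 subunit, was at 4817 to 9430 normalized counts against 2721 to 4163, and Kcnd2 at 2516 to 5027 against 1569 to 2214. Kcnc2, a Kv3 subunit of interneurons, was lower in the 4 (949 to 1149 against 1350 to 2029). With all mice the log2 fold changes of Kcnc1 against dark were −0.31, −0.25 and −0.36 and did not pass. Without the 4 libraries they were 0.25, 0.23 and 0.28, with adjusted p of 0.016, 0.0279 and 0.00534, so that the direction of Kcnc1 turned.

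**Figure D4:**
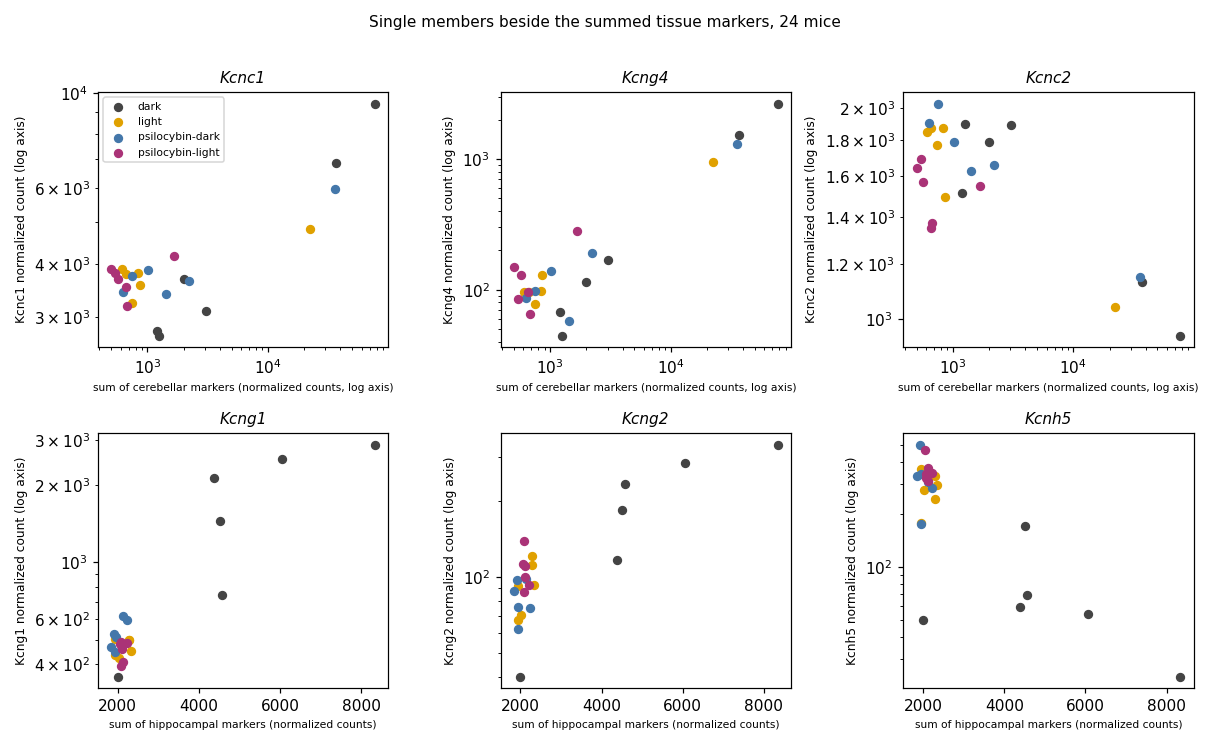
Normalized counts of single members (log axis) against the summed cerebellar (top row, log axis) or hippocampal (bottom row) markers in each of 24 mice, coloured by group. Kcnc1 and Kcng4 are highest and Kcnc2 lowest in the 4 mice with cerebellar sums of 22330 or more; the 5 dark mice with hippocampal sums of 4381 or more lie above all others for Kcng1 and, except dark mouse 3 at 116, for Kcng2, while Kcnh5 is low in all 6 dark mice.

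Electrically silent Kv subunits, which form no channel alone but alter Kv2 channels, went both ways. Of 8 tested, 3 rose and 2 fell in light and in psilocybin-dark mice, and 2 rose and 3 fell in psilocybin-light mice, beside 31.9%, 24.7% and 38.4% of all genes called. Kcnv1 and Kcns1 were the silent subunits higher in all 3 comparisons: Kcnv1 rose by 1.08, 1.19 and 1.10 and Kcns1 by 1.11, 0.88 and 1.36 on the log2 scale. Kcnv1 ran from 341 to 1626 normalized counts in dark mice and from 1394 to 2547 in the others. Kcns1 ran from 109 to 316 in dark mice and from 534 to 661 in psilocybin-light mice, without overlap. Kcns2 was higher in psilocybin-dark mice (log2 fold change 0.38, adjusted p = 0.0122), and its difference between psilocybin-dark and light mice did not pass (0.31, adjusted p = 0.139).

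Kcng1 and Kcng2 fell in the same comparisons. Kcng1 was at 746, 2542, 2129, 2877, 1452 and 358 normalized counts in dark mice 1 to 6, against 424 to 501 in light, 445 to 621 in psilocybin-dark and 396 to 489 in psilocybin-light mice. Dark mouse 6 lay below all 18 other mice and the other 5 dark mice above them. Kcng1 had log2 fold changes of −1.85 ± 0.30 (adjusted p = 9.63e-05), −1.67 ± 0.30 (adjusted p = 0.000387) and −1.89 ± 0.31 (adjusted p = 4.99e-05). With the hippocampal marker mean as a covariate they were −0.77, −0.50 and −0.69 and none passed (adjusted p = 0.318, 0.676 and 0.394). Kcng2 ran from 40.2 (dark mouse 6) to 334 in dark mice and from 62.1 to 139 in the others, with log2 fold changes of −1.11, −1.26 and −0.89. With that covariate they turned to 0.058, 0.016 and 0.39, and without the 4 libraries they were −1.24, −1.40 and −1.10. The row of Kcng2 overlaps Slc66a2.

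Kcng4 passed downward in psilocybin-light mice with a log2 fold change of −2.51 ± 0.99 (adjusted p = 0.0479), a call lost without the libraries rich in cerebellar markers. It was at 1523 and 2652 normalized counts in dark mice 1 and 6 and at 44.6 to 168 in dark mice 2 to 5, against 65.8 to 280 in psilocybin-light mice. With those libraries left out the log2 fold change was 0.46 (adjusted p = 0.341). Kcnf1, the most abundant silent subunit, did not pass, with log2 fold changes of 0.13, 0.34 and 0.19.

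Auxiliary subunits of Kv channels also moved in both directions. Each of the 3 Kv beta subunits, cytoplasmic proteins that bind Kv1 channels and can speed their inactivation, passed in each comparison, Kcnab2 and Kcnab3 upward and Kcnab1 downward. Kcnab3 ran from 252 to 692 normalized counts in dark mice, with medians of 1032, 868 and 1180 in the others, and rose by 1.15, 0.85 and 1.38 on the log2 scale (adjusted p = 0.000544, 0.00852 and 6.31e-05). Kcnab2, at 757.0 per kilobase, rose by 0.36, 0.24 and 0.41 (adjusted p = 0.00153, 0.0288 and 0.000342), and its row overlaps Chd5 and Nphp4. Kcnab1 fell by 0.48, 0.34 and 0.43 (adjusted p = 0.00414, 0.0439 and 0.00716), with dark mouse 6 the highest of all mice at 3052. A two-sided exact permutation test of 6 psilocybin-dark against 6 dark mice gave p = 0.0519 for Kcnab1. Of 37 alternative settings, stricter thresholds included, the psilocybin-dark call was lost in 20 for Kcnab1, 15 for Kcnab2 and 4 for Kcnab3. All genes called were 31.9%, 24.7% and 38.4% in light, psilocybin-dark and psilocybin-light mice.

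Of the KChIP proteins, calcium sensors that bind Kv4 channels, Kcnip3 was higher in psilocybin-dark (log2 fold change 0.32 ± 0.11, adjusted p = 0.0413) and psilocybin-light mice (0.34 ± 0.11, adjusted p = 0.0218). Dark mouse 1, at 1261 normalized counts, was the lowest of all mice and the other 5 dark mice were at 2031 to 2586. With the hippocampal marker mean as a covariate the values of Kcnip3 turned to −0.018 and −0.0081 (adjusted p = 0.969 and 0.982). Kcnip1, Kcnip2 and Kcnip4 did not pass. Of the small KCNE subunits Kcne5 fell by 0.94, 0.81 and 1.03 on the log2 scale (adjusted p = 0.00974, 0.03 and 0.00421), from 53.9 to 166 normalized counts in dark mice to medians of 47.7, 49.4 and 40.8.

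Among channels gated by calcium, Kcnn1 rose and Kcnn3 fell, while Kcnn2, the most abundant of these SK subunits at 65.3 per kilobase, did not pass. SK channels open with the calcium that enters during spikes and contribute to the afterhyperpolarization. Kcnn3 ran from 374 to 815 normalized counts in dark mice (median 692) and had medians of 321, 387 and 301 in light, psilocybin-dark and psilocybin-light mice. The log2 fold changes of Kcnn3 were −0.94 ± 0.17 (adjusted p = 0.000278), −0.77 ± 0.17 (adjusted p = 0.00231) and −1.09 ± 0.17 (adjusted p = 4.44e-05), and dark mice 1 and 6, at 462 and 374, overlapped the light and psilocybin-dark mice. Without the 4 libraries no other mouse reached the dark mice (600 to 815), and with the hippocampal covariate the log2 fold changes were −0.46, −0.25 and −0.55 and did not pass. Kcnn1 ran from 215 to 253 in dark mice and from 279 to 370 in light mice, a log2 fold change of 0.53 ± 0.08 (adjusted p = 5.71e-05).

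Kcnma1, the pore of the large-conductance BK channel, was lower in psilocybin-light mice (log2 fold change −0.26 ± 0.09, adjusted p = 0.027). In light mice the value was −0.19 (adjusted p = 0.109) and in psilocybin-dark mice 0.0071 (adjusted p = 0.967), and psilocybin-light mice did not differ past the threshold from psilocybin-dark mice (adjusted p = 0.0839). Its beta subunits went apart: Kcnmb4, the main neuronal beta subunit, rose by 0.58, 0.55 and 0.60 (adjusted p = 0.00038, 0.00092 and 0.000195), and Kcnmb2 fell by 0.49 in light and 0.58 in psilocybin-dark mice (adjusted p = 0.0361 and 0.0203). With the hippocampal covariate the values of Kcnmb2 turned to 0.13 and 0.10 (adjusted p = 0.778 and 0.874). Kcnmb4 ran from 178 to 327 normalized counts in dark mice and from 380 to 441 in light mice, without overlap. Of the sodium-activated channels Kcnt2 rose by 0.74, 0.85 and 0.84 (adjusted p = 0.00154, 0.000648 and 0.000332), from 239 to 559 normalized counts in dark mice. Kcnt1, more abundant at 152.5 per kilobase, did not pass with all mice.

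Inward rectifiers hold the resting potential near that of potassium. Of 13 tested, 4 were higher and 1 lower than dark in light and psilocybin-light mice, and 3 were higher and 1 lower in psilocybin-dark mice, beside 31.9%, 38.4% and 24.7% of all genes called in light, psilocybin-light and psilocybin-dark mice. Kcnj2, a classical strong rectifier of neurons and vessels, ran from 128 to 284 normalized counts in dark mice. It ran from 284 to 472 in light, from 349 to 418 in psilocybin-dark and from 272 to 447 in psilocybin-light mice. Psilocybin-dark mice did not overlap dark mice. Light mice did not either, but only barely, with light mouse 18 at 284.41 and dark mouse 5 at 284.38. The log2 fold changes were 1.06 ± 0.16 (adjusted p = 4.15e-05), 1.02 ± 0.16 (adjusted p = 0.00012) and 0.79 ± 0.16 (adjusted p = 0.000534). Kcnj11, the pore of the ATP-gated KATP channel, rose by 0.66 in light mice (adjusted p = 0.000653). Kcnj9, a G protein-gated subunit whose row overlaps Igsf8, rose by 0.49 in light and 0.32 in psilocybin-dark mice. Kcnj4 passed in light and psilocybin-light mice (log2 fold changes of 0.70 and 0.73), where dark mouse 1, at 353, was the lowest of all mice.

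Kcnj16, a rectifier of glia and epithelia that pairs with Kcnj10, was the inward rectifier that fell. It ran from 570 to 826 normalized counts in dark mice, from 287 to 467 in light, from 330 to 505 in psilocybin-dark and from 322 to 464 in psilocybin-light mice, and no group overlapped dark. Log2 fold changes of Kcnj16 were −0.86 ± 0.13 (adjusted p = 3.14e-05), −0.82 ± 0.13 (adjusted p = 0.000106) and −0.98 ± 0.13 (adjusted p = 5.25e-06). They were −0.93, −0.86 and −0.97 without the 4 libraries. With the hippocampal covariate they were −0.50, −0.42 and −0.58 (adjusted p = 0.0582, 0.289 and 0.0332). The partner Kcnj10 did not pass (log2 fold changes of −0.19, −0.25 and −0.31), and dark mice 1 and 6 held the highest values of Kcnj10, 5855 and 4077 normalized counts. Of 7 astrocyte markers 2 were lower and 1 higher than dark in light and in psilocybin-dark mice, and 3 were lower and 1 higher in psilocybin-light mice. The list's median log2 fold changes were −0.33, −0.29 and −0.46, against −0.01, −0.02 and −0.02 over all genes, and the part of astrocytes in the values of Kcnj16 was not tested. The pericyte rectifier Kcnj8, the choroid plexus rectifier Kcnj13, whose row overlaps Gigyf2, and the microglial leak channel Kcnk13 did not pass in any comparison.

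Among the tandem-pore leak channels, which set resting conductance, Kcnk4 and Kcnk2 rose and Kcnk10 fell. Of 10 tested, 2 were higher and 1 lower in light mice, 2 and 0 in psilocybin-dark mice, and 3 and 2 in psilocybin-light mice, where Kcnk6 (log2 fold change 0.56) and Kcnk12 (−0.41) also passed. All genes called were 31.9%, 24.7% and 38.4% in that order. Kcnk4, a channel gated by stretch and lipids (chromosome 19, 6901334 to 6911883, sharing exon sequence with Catsperz on the same strand), ran from 50.1 to 179 normalized counts in dark mice. It had narrow ranges of 277 to 321 in light and 288 to 370 in psilocybin-light mice and ran from 177 to 368 in psilocybin-dark mice, of which only mouse 12, the lowest, overlapped the dark mice. Log2 fold changes were 1.5 ± 0.20 (adjusted p = 1.08e-05), 1.38 ± 0.20 (adjusted p = 4.84e-05) and 1.54 ± 0.20 (adjusted p = 5.03e-06). With the hippocampal covariate they were 1.05, 0.88 and 1.04 (adjusted p = 0.0375, 0.261 and 0.0463).

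Kcnk2, gated in a similar way, rose by 0.45 in light mice (adjusted p = 0.00471) and 0.51 in psilocybin-dark mice (adjusted p = 0.00258). Kcnk10 fell by 0.86 in light (adjusted p = 0.0128) and 1.15 in psilocybin-light mice (adjusted p = 0.00127). Like Kcnc1 it was higher in the 4 libraries rich in cerebellar markers (220 to 493 normalized counts), but its direction did not turn without them. Dark mice then ran from 168 to 192, above light (108 to 147) and psilocybin-light mice (89.0 to 143), while psilocybin-dark mice (144 to 190) overlapped them. Kcnk1, the most abundant member per kilobase, did not pass with all mice (log2 fold changes of 0.29, 0.34 and 0.34), and dark mouse 6 was the highest of all mice at 2966. Kcnk1 without the 4 libraries ran from 1185 to 1624 in dark mice and from 1831 to 2416 in the others, and its log2 fold changes were 0.64, 0.66 and 0.70 (adjusted p = 2.74e-06, 3.4e-06 and 5.12e-07).

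Between the 3 groups that differed from dark, no channel gene passed. Psilocybin-light against light mice gave 0 of 76 (0.608% of all genes), psilocybin-light against psilocybin-dark mice 0 (6.38%) and psilocybin-dark against light mice 0 (0.456%) by edgeR, and DESeq2 also gave 0 in each. At an unadjusted p under 0.05 there were 2 (Kcnj8 and Kcnk6), 8 and 3 (Kcnma1, Kcnn1 and Kcns2) members. Some genes without any difference also fall under that limit. The shares of all genes under it were not computed, so these counts are not read as differences of channel genes. The smallest adjusted p were 0.362 for Kcnk6, 0.0839 for Kcnma1 and 0.139 for Kcns2. For Kcnh5 the 95% interval of the log2 difference between psilocybin-light and light mice was −0.21 to 0.90, and between psilocybin-dark and light mice −0.36 to 0.75. For Kcnk4 these intervals were −0.34 to 0.41 and −0.49 to 0.26, and for Kcng1 −0.64 to 0.54 and −0.42 to 0.76.

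In the comparison of psilocybin-light with psilocybin-dark mice, calls depended on the libraries used. Without the 4 libraries rich in cerebellar markers, 11 members passed (17.2% of all genes). Kcnh4 (log2 difference 0.61, adjusted p = 0.0357), Kcns1 (0.36), Kcnt1 (0.24), Kcnip1 (0.22) and Kcnj9 (0.19) were higher with light. Kcnk10 (−0.44), Kcna4 (−0.34, adjusted p = 0.0036), Kcnj6 (−0.31), Kcnma1 (−0.26, adjusted p = 0.0245), Kcnc2 (−0.23) and Kcnf1 (−0.23) were lower. These 11 were named after their values were seen. Kcnma1 ran from 3681 to 4523 normalized counts in psilocybin-light and from 4339 to 5303 in psilocybin-dark mice, so that the groups overlapped. Psilocybin-dark against light mice then gave 3 members (Kcns2 0.31, Kcnip1 −0.20 and Kcnj9 −0.18, beside 6.03% of all genes), and psilocybin-light against light mice gave 0 (2.34%).

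The interaction asks whether the psilocybin-light difference from dark equals the sum of the light and psilocybin-dark differences on the log2 scale. It passed for 13 of 76 members (17.1%, against 8.75% of all genes), 4 upward (all genes 3.89%) and 9 downward (all genes 4.86%). In every case the psilocybin-light value was nearer to 0 than that sum. No member differed past the threshold between light, psilocybin-dark and psilocybin-light mice, so their differences from dark were alike. The sum then lies beyond each of them, and the interaction largely restates the difference from dark with its sign turned. Its direction is therefore not a separate result. For Kcnh5 the single differences of 1.98 and 2.17 added to 4.15, while psilocybin-light mice stood at 2.32, an interaction of −1.83 ± 0.41 (adjusted p = 0.00979). For Kcnk4 the sum was 2.88 and the observed value 1.54, and for Kcnj2, with the smallest adjusted p of the interaction (0.00258), 2.09 and 0.79. Among the genes that fell, the sum for Kcng1 was −3.52 and the observed value −1.89 (interaction 1.63 ± 0.43, adjusted p = 0.0209). The other 9 were Kcnh1, Kcnh7, Kcnq5, Kcnv1, Kcnt2 and Kcnmb4, which rose, and Kcnj16, Kcnmb2 and Kcng2, which fell in light and psilocybin-dark mice. All terms share the dark mice. With the hippocampal marker mean as a covariate no member passed (0.00% of all genes), and without the 4 libraries 33 passed (27.0% of all genes).

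**Figure D5:**
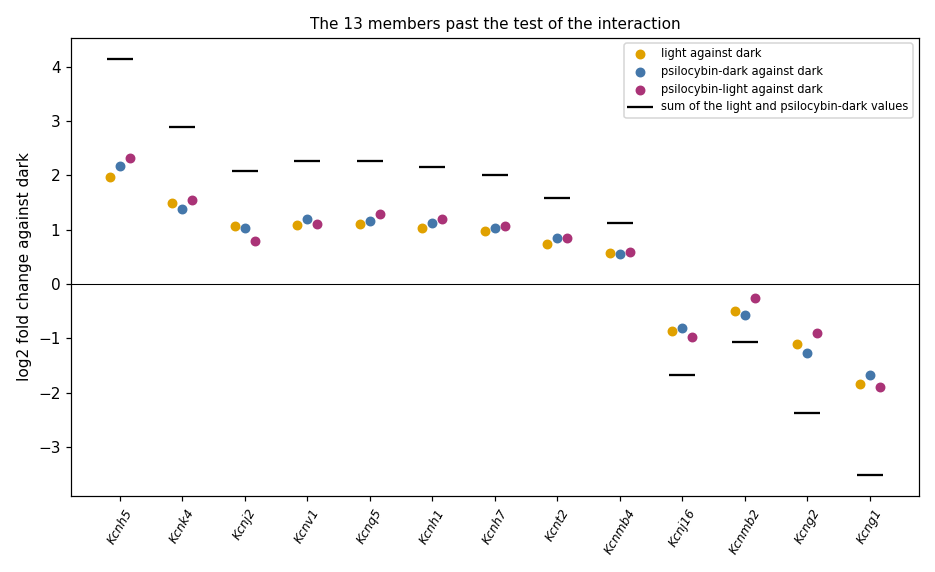
Log2 fold change against dark mice for the 13 members past the test of the interaction: points are the light, psilocybin-dark and psilocybin-light values, and the black dash is the sum of the light and psilocybin-dark values. The psilocybin-light point lies between 0 and the dash for each gene, for Kcnh5 at 2.32 against 4.15.

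Other genes of the potassium system, from lists, can be read against the 31.9%, 24.7% and 38.4% of all genes called in either direction in light, psilocybin-dark and psilocybin-light mice. Of 22 partners of Kv channels, 2 were higher and 3 lower in light mice, 4 and 3 in psilocybin-dark mice and 4 and 4 in psilocybin-light mice. Dpp6, the membrane protein that brings Kv4 channels to the surface and speeds them, had means of 6124 ± 344 (SD, n = 6) normalized counts in dark, 4118 ± 228 in light, 4350 ± 531 in psilocybin-dark and 3953 ± 198 in psilocybin-light mice, and fell by 0.57, 0.49 and 0.63 on the log2 scale. The scaffold gene Dlg1 rose by 0.38, 0.50 and 0.38, and Amigo1, a partner of Kv2 channels, by 0.19, 0.25 and 0.19. The anchoring protein Akap9 fell by 0.51, 0.35 and 0.41. Of 4 tested partners of BK and KATP channels (of 6 listed), Lrrc55, a BK subunit, rose by 1.07, 1.11 and 1.02, and Abcc8, the KATP sulfonylurea receptor, rose by 0.56 in light mice.

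Of 14 pumps and transporters that move potassium, 3 were higher and 2 lower in light mice, 2 and 2 in psilocybin-dark mice and 3 and 2 in psilocybin-light mice, beside the same shares of all genes. Slc12a5, the chloride and potassium exporter of neurons, rose by 0.12, 0.17 and 0.25, and Tmem38a, an intracellular cation channel, by 0.30 in light and 0.36 in psilocybin-light mice. Tmem175, the lysosomal potassium channel, fell by 0.26 and 0.23 in light and psilocybin-dark mice.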

How the data were processed

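RNA from visual cortex was enriched for poly-A, and reads were trimmed with cutadapt, mapped with STAR to GRCm39 and counted with htseq-count by the authors. The submitters' processing notes name the build mm10 instead, and 54749 of the 55414 deposited rows are named in GENCODE vM39 (GRCm39). The table the authors deposited holds raw counts per Ensembl gene for 24 libraries, without normalization. The strand setting of the counting is not given in the sources used here.

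Groups followed the headings of the study's supplementary count table through the library names. In R 4.3.3, edgeR 4.0.16 kept genes that reached 30 counts in any library, scaled libraries by TMM and fitted a quasi-likelihood model with 1 term per group to all 24 mice, with Benjamini-Hochberg adjusted two-sided p over 14464 genes. The common biological coefficient of variation was 0.182. Normalized counts were scaled to a mean effective library size of 16058300, and 95% intervals were normal ones from the standard error. Single values were also compared by exact permutation of 6 against 6 mice, whose smallest p is 0.00216. After the fit, the same test was also run on simulated counts with known changes. These counts had a common spread for all genes and did not copy the marker differences between libraries. Alternatives used DESeq2 1.42.0 and sva 3.50.0. Figures were drawn with matplotlib 3.10.9.

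Named genes were up to 8 called members in each direction, by size of the log2 fold change, in each comparison against dark (mean of at least 10), every member called in the other contrasts, the most abundant member of each family, known markers of cell classes and up to 3 partners per direction; others are named within their family. The members, families, lists and several alternatives were chosen with earlier results of these data known. Some genes are not reported here, and counts over lists include them.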

Additional observations from a re-analysis of the deposited data

Results flagged for a closer look

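The interaction test (edgeR, adjusted p under 0.05) passed for 13 members (17.1%, against 8.75% of all genes). All its terms share the dark mice, and with the hippocampal marker mean as a covariate no member passed. Its direction follows where the other groups differ from dark alike, and is not a separate result. Of 36 alternative settings, stricter thresholds included, the call was lost in 25 for Kcnmb2 and in 23 each for Kcnh7, Kcnt2 and Kcnv1. For Kcnj2 it was lost in 1. The log2 interactions were −1.83 for Kcnh5, −1.34 for Kcnk4, −1.29 for Kcnj2, −1.18 for Kcnv1, −0.99 for Kcnq5, −0.96 for Kcnh1, −0.95 for Kcnh7, −0.75 for Kcnt2 and −0.53 for Kcnmb4, which were higher than dark under each stimulus alone. They were 0.70 for Kcnj16, 0.80 for Kcnmb2, 1.48 for Kcng2 and 1.63 for Kcng1, which were lower than dark under each stimulus alone. The sign of all 13 would be exchanged under the other naming of light exposure.

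Single mice lay far from the other 5 of their group by Dixon's ratio in 13 of 88 groups screened over 22 members, where chance gives about 1 in 20 groups. Of these, 7 were in libraries rich in cerebellar markers from the light and psilocybin-dark groups. Psilocybin-dark mouse 12 was highest for Kcnab1 (2334 normalized counts), Kcng4 (1298) and Kcnk10 (310.3) and lowest for Kcnt2 (516.5). Light mouse 18 was highest for Kcng4 (956.7) and Kcnk10 (220.1) and lowest for Kcnk4 (277.4). In the dark group, mouse 6 was highest for Kcnab1 (3052) and mouse 5 for Kcnh5 (171.9). Psilocybin-light mouse 20 was highest for Kcnh5 (467.3) and Kcnj2 (446.9), psilocybin-light mouse 23 for Kcnj16 (464.0), and light mouse 16 for Kcnmb4 (441.4).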

How the results depend on the processing

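Counts of members called are given in the order light, psilocybin-dark and psilocybin-light against dark, unless another comparison is named. DESeq2, its size factors and edgeR's filterByExpr kept all 7 counts within 1.5 times of 34, 32, 40, 0, 0, 0 and 13. With the hippocampal marker mean as a covariate the counts were 10, 0 and 11, with both marker means 15, 2 and 12, and with a log2 change of 1 or more required in size they were 13, 11 and 16. Of all genes, 8.28%, 0.0% and 11.2% passed with the hippocampal mean, and 12.5%, 0.74% and 13.0% with both means. For psilocybin-dark against dark, 18 were called with only the groups compared and 19 at an adjusted p under 0.01. With only the groups compared, 13.8% of all genes passed in that comparison. The shares of all genes at the stricter thresholds are not given here. Psilocybin-light against psilocybin-dark gave 5 with only the groups compared, with 1 surrogate variable, without dark mice 1 and 6, and with the cerebellar or both marker means, 1 with the hippocampal mean and 11 without the 4 libraries. Psilocybin-dark against light gave 1 with 1 surrogate variable and without dark mice 1 and 6, 2 with the cerebellar or both means and 3 without the 4 libraries. The interaction gave 7 without a filter, 4 at an adjusted p under 0.01, 6 at a log2 fold of at least 1, 23 with 1 surrogate variable, 27 without dark mice 1 and 6, 33 without the 4 libraries, 0 with the hippocampal mean and 1 with both means. The interaction could not be fitted on single pairs of groups. It passed for 2.39% of all genes without a filter, 18.2% with 1 surrogate variable and 21.6% without dark mice 1 and 6. The shares were 27.0% without the 4 libraries, 0.0% with the hippocampal mean and 0.643% with both means. Psilocybin-dark against light gave 4.03% of all genes with 1 surrogate variable and 4.82% without dark mice 1 and 6. It gave 5.57% with the cerebellar mean, 6.35% with both means and 6.03% without the 4 libraries. Psilocybin-light against psilocybin-dark gave 12.1% of all genes with only the groups compared and 12.6% with 1 surrogate variable. It gave 12.5% without dark mice 1 and 6 and also with the cerebellar mean, 14.2% with both means and 7.35% with the hippocampal mean. Without the 4 libraries it gave 17.2%. The cause of these changes was not tested.

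Leaving out each mouse in turn gave 30 to 40, 24 to 37 and 36 to 42 called against dark, 0 to 0 for psilocybin-light and psilocybin-dark against light, 0 to 2 for psilocybin-light against psilocybin-dark and 7 to 18 for the interaction. Of all genes, 27.2% to 34.8%, 19.0% to 29.2% and 33.9% to 40.1% were then called against dark. For the interaction the share was 5.77% to 14.5%. Of 89 log2 fold changes of named members, none changed sign with DESeq2 or any mouse left out. With the hippocampal mean, 7 did: Kcng2 to 0.058, 0.016 and 0.39, Kcnip3 to −0.018 and −0.0081 in the psilocybin groups, and Kcnmb2 to 0.13 and 0.10 in light and psilocybin-dark mice. With both means Kcng2 turned to 0.070 in psilocybin-light mice, Kcnip3 to −0.086 and −0.13 and Kcnmb2 to 0.014 and 0.0099. Kcng4 in psilocybin-light mice turned to 0.46 without dark mice 1 and 6 or without the 4 libraries, 1.25 with the cerebellar mean and 0.83 with both. The cerebellar mean, both means together and the 4 libraries left out were chosen after seeing the data.

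Levels are of RNA in bulk tissue, so a change within a cell type and a change in its share cannot be told apart. All 3 main comparisons rest on the same 6 dark mice, each of which had raised hippocampal or cerebellar markers. No batch was given in the sources used here. The names of light exposure are disputed between the sources, and 47 members share exon sequence with another gene.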
